A study of Homo sapiens with 9 samples.

Results

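The mitochondrial ribosomal protein genes were taken as every gene of the expression table whose symbol was MRPL or MRPS with a number and, where present, a letter A, B or C, with pseudogenes left out. The rule gave 78 of the 57338 genes in the table, 49 with an MRPL symbol (large subunit) and 29 with an MRPS symbol (small subunit), and it used no measured value. By the labels, RNA was measured in HEK293T cells (a line derived from human embryonic kidney) after transfection with plasmids and a sort for high EGFP signal 3 days later. The 3 groups had 3 libraries each: the empty vector, which codes for EGFP alone, human PRM1 fused to EGFP (hPRM1), and human PRM2 fused to EGFP (hPRM2). By their labels all groups shared the cell line, the transfection, EGFP and the sort, and untransfected cells were not analysed here. The groups were compared because protamines pack the DNA of sperm, and the question was how these cells transcribe their genes when a protamine is present.

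Mitochondria have ribosomes of their own, which make the few proteins coded in mitochondrial DNA, all of them parts of the respiratory chain or ATP synthase. The proteins of these ribosomes are coded in the nucleus, translated in the cytosol and imported, so both genomes must supply the respiratory chain. The small subunit holds the decoding centre and the large subunit the centre that joins amino acids. By structure, MRPS18A and MRPS30 sit in the large subunit in spite of their names, and MRPS36 belongs to the 2-oxoglutarate dehydrogenase complex.

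The libraries differed in ways that touch every value that follows. RPKM values (reads scaled to gene length and to the reads of the library) carry no read totals. The reads on genes were therefore estimated from the steps between low values. The estimates were 7900000 to 10780000 for the empty vector, 4190000 to 5850000 for the libraries labelled hPRM1 and 1270000 to 2650000 for hPRM2. The paper on these data reports that fewer reads were obtained on average for hPRM1 than for hPRM2, the reverse of this order. Its values are reads obtained and not reads on genes, so the 2 orders are not directly comparable. The paper also reports that exonic reads decreased in hPRM2. The cause of the difference in order was not tested. PRM2 stood at 71224, 60050 and 36130 RPKM in the hPRM2 libraries and was listed at 0 in the other 6, whereas PRM1 was listed at 0 in all 9 libraries, the libraries labelled hPRM1 included. In those 3 libraries the 10 red cell genes measured, led by HBA2 and HBB, summed to between 2060290 and 2266440 RPKM, against 3.09 to 18.2 RPKM in the empty vector and 2.16 to 16.3 RPKM in hPRM2. The 10 neutrophil and monocyte genes summed there to between 6052 and 6991 RPKM (at most 20.7 RPKM elsewhere), the 8 lymphocyte genes to between 627 and 855 RPKM (0 elsewhere), and the 6 platelet genes to between 336 and 595 RPKM (at most 32.1 RPKM elsewhere). The 10 genes chosen as HEK293T markers summed there to between 8.64 and 9.90 RPKM, with 6 of them at 0 in all 3 libraries. Their sum was 208 to 328 RPKM in the empty vector and 206 to 378 RPKM in hPRM2. The hPRM2 sum leaned on LHX1, at 63.4, 261 and 201 RPKM against 10.7 to 23.0 RPKM in the empty vector. In hPRM2, 4 of the 10 markers lay below all empty vector libraries and 1 lay above them. The part of these other cells' RNA in the results for hPRM1 was not tested, and it cannot be told apart from an effect of the protamine in these libraries. The library names in the sample descriptions also put the hPRM1 libraries in another number series than the other 6. In bulk RNA, fewer cells of a type and less RNA per cell cannot be told apart either.

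The promoters of 6 members are shown because these genes were among the 5 most lowered in the libraries labelled hPRM1 (MRPS18C, MRPL39, MRPL47), the least lowered (MRPL20), or mark the ribosome's stalk (MRPL12) and catalytic centre (MRPL27). MRPL13, MRPL48 and MRPS6, which also stood at the ends, are not shown. Each run is RefSeq sequence from the 250 bases before the RefSeq transcription start on GRCh38.p14, read 5′ to 3′ on the strand of the gene, with at most 30 bases inside the gene as drawn in GENCODE 29. The runs lie at chr4:83455908-83455961 (plus strand) for MRPS18C, chr21:25607488-25607631 (minus) for MRPL39, chr3:179604639-179604788 (minus) for MRPL47, chr17:81703217-81703366 (plus) for MRPL12, chr17:50373185-50373334 (minus) for MRPL27 and chr1:1407294-1407443 (minus) for MRPL20. Capitals mark an exact match, on either strand, to the core that ETS factors such as GABPA bind (CCGGAAG) or to the core of NRF1 (CGCATGCG), both regulators of nuclear genes for mitochondria.
MRPS18C: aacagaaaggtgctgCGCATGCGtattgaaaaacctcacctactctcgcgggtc
MRPL39: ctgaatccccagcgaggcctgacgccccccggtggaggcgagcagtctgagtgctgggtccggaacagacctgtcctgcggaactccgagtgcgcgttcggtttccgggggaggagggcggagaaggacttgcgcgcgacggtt
MRPL47: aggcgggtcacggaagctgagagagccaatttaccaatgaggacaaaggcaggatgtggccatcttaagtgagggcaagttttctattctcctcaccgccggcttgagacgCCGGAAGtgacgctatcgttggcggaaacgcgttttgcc
MRPL12: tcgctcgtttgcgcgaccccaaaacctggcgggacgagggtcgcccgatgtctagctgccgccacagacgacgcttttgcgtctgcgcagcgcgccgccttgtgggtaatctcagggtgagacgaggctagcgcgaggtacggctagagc
MRPL27: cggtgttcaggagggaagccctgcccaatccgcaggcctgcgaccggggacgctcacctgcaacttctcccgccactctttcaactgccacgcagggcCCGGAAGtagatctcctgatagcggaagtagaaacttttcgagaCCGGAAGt
MRPL20: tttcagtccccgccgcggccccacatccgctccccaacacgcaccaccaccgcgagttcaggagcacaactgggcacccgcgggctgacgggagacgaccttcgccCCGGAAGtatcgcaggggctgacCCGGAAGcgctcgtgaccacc

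MRPL20 and MRPL27 each held 2 ETS cores in these stretches, 44 and 21 bases before the start in MRPL20 and 52 and 8 bases in MRPL27. MRPL47 held 1 ETS core 39 bases before the start, and MRPS18C held 1 NRF1 core 135 bases before it. Neither core was found in the stretches of MRPL39 and MRPL12. Positions count from the RefSeq start, while the run of MRPS18C ends 30 bases inside its GENCODE 29 gene. In the wider window of 300 bases MRPS18C also held an ETS core, outside the stretch shown. Over the 300 bases around the start (250 before and 50 after), which were available for 69 of the 78 genes, the ETS core was found in 29 promoters (42.0%), against 10.3% of 35116 promoters of all genes. The core of YY1 (AAGATGGCG), which can share letters with an ETS core, was found in 13 (18.8%, against 1.75% of all), and that of NRF1 in 3 (4.35%, against 2.02%). The median log2 fold change of hPRM1 against the empty vector was -3.73 for the 28 tested genes with the ETS core and -4.05 for the 49 without a match or a promoter sequence. For YY1 it was -3.84 with the core (13 genes) and -3.89 without, and for NRF1 -5.03 with it (3 genes) and -3.80 without. These matches are letters in a window and say nothing of whether a factor was bound.

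In the empty vector the 78 genes spanned 0 to 839 RPKM (mean of 3 libraries), and their median was 88.6, 96.8 and 82.5 RPKM in replicates 1 to 3. MRPL33, a small protein of the large subunit, had the highest level, at 923, 721 and 874 RPKM. It was followed by MRPS34 (605, 538 and 792 RPKM), MRPL21 (619, 531 and 713), MRPS18C (504, 481 and 415) and MRPL55 (437, 441 and 511). MRPS34 overlapped both MRPL33 and MRPL21 in its range over libraries, which did not overlap each other, and MRPS18C overlapped MRPL55. All 3 libraries of MRPL21 lay above those of MRPS18C. MRPL28 was listed at 0 in all 3 libraries, and whether the gene was silent was not tested. The next lowest were MRPL50 (8.90 to 13.2 RPKM), MRPS23 (18.7, 20.9 and 17.2), MRPL23 (18.8, 28.6 and 19.9) and MRPS17 (24.6, 22.4 and 25.3). MRPL50 lay below the other 3, which overlapped their neighbours. For 11 members, MRPL33 and MRPS17 among them, another gene lies on the same strand over the 3′ end and may share reads. The replicates were close: the median coefficient of variation over the 77 genes above 0 was 14.3%. It was 28.1% over 11769 protein-coding genes above 0 here, with at least 1 RPKM in any 3 of the 9 libraries. The 2 sets were not matched by level, so their spreads are not directly comparable. The kit reads the 3′ end, while RPKM divides by gene length. Across the 77 genes the level in the empty vector was lower for longer transcripts (Spearman's rho = -0.28, a description across genes, which are not independent). The length used was the median over the GENCODE 29 transcripts of a gene, since the lengths behind the deposited RPKM are not known. The part of the scaling by length in this relation was not tested.

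**Figure D1:**
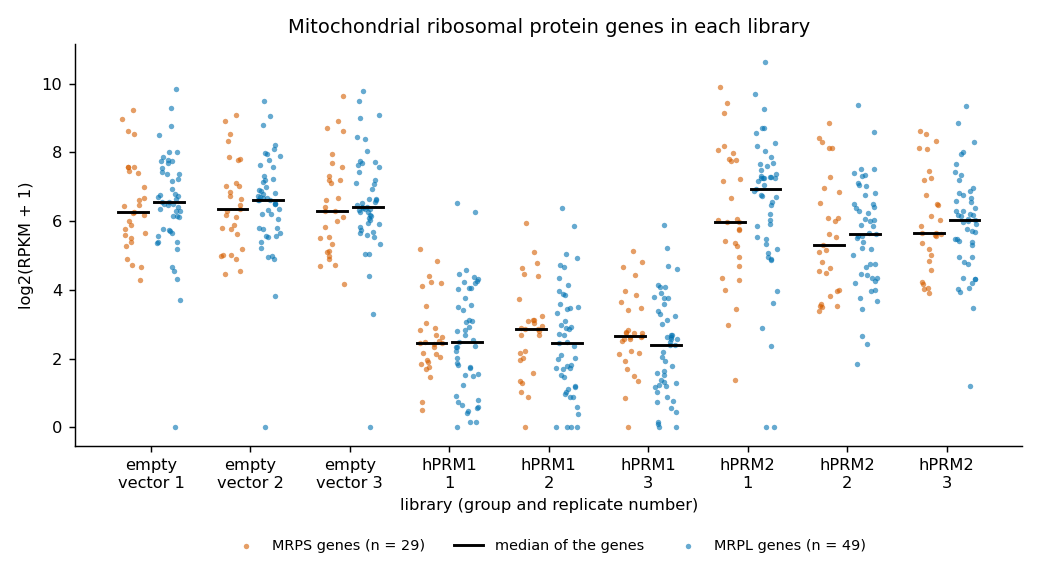
Each point is 1 mitochondrial ribosomal protein gene in 1 library, as log2(RPKM + 1) on the vertical axis, with MRPS genes in orange, MRPL genes in blue and a bar at the median of each. The 3 empty vector libraries are alike (medians of 82.5 to 96.8 RPKM), the 3 libraries labelled hPRM1 sit far lower (4.56 to 5.50 RPKM) and the hPRM2 libraries spread from 46.2 to 104 RPKM.

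In the libraries labelled hPRM1 every member that could be tested was lower than in the empty vector. MRPL28, at 0 in both groups, did not pass the minimum of 1 RPKM in 3 of 6 libraries, and the other 77 were tested with limma on log2(RPKM + 1). All 77 were called lower (adjusted p of at most 0.05 and at least 2-fold), none was called higher, and in all 77 the highest hPRM1 library lay below the lowest empty vector library. Of the 13588 genes tested, 62.5% were called lower, 12.9% were called higher (8491 and 1750 genes, and 3412 and 4434 after a median of ratios), and 66.4% had hPRM1 libraries that all lay below the empty vector. The median log2 fold change of the 77 was -3.89, or 14.8-fold lower, against -1.72 for all genes tested, and each of the 77 lay below that median. As shares of the empty vector mean, 12 genes were left at under 2%, 35 at under 5%, 63 at under 10%, and 2 (MRPS6 and MRPL20) at 20% or more. The sum over the 78 genes was 717, 767 and 615 RPKM, against 11017, 10537 and 11603 RPKM in the empty vector.

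The genes for the working parts of the ribosome followed the same course. MRPL12 (ENSG00000262814, chr17:81703357-81707526), the stalk protein that binds translation factors, was measured at 49.1, 53.7 and 97.1 RPKM in the empty vector and at 0.658, 2.44 and 1.48 RPKM in hPRM1. The groups did not overlap, and the log2 fold change was -4.74 (SE 0.38, limma, adjusted p = 4.42e-05). An unnamed gene lies on the same strand over the 3′ end of MRPL12, so part of these reads may belong to it. MRPL10, which anchors the stalk, went from 39.4 to 52.2 RPKM over the 3 empty vector libraries to between 4.16 and 4.54 RPKM. MRPL11, at the base of the same stalk, was left at 3.03% (81.2 ± 8.57 to 2.46 ± 0.527 RPKM, SD over 3 libraries, as in the values that follow).

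MRPL27, next to the centre that joins amino acids, was measured at 92.9, 102 and 93.4 RPKM in the empty vector and at 7.43, 9.91 and 8.35 RPKM in hPRM1, a log2 fold change of -3.35 (SE 0.19, limma, adjusted p = 1.08e-05). MRPL45, which ties the ribosome to the inner membrane, went from 43.6 ± 4.57 to 3.05 ± 0.109 RPKM. MRPL58, a release factor built into the large subunit, went from 83.6 ± 13.7 to 4.78 ± 1.38 RPKM. MRPL45 was the tightest of these among the hPRM1 replicates, and in none of them did the groups overlap.

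In the small subunit, MRPS12 (ENSG00000128626, chr19:38930548-38933162) of the decoding centre was measured at 53.3, 68.0 and 97.6 RPKM in the empty vector and at 5.45, 7.59 and 6.11 RPKM in hPRM1. Its log2 fold change was -3.29 (SE 0.27, limma, adjusted p = 5.16e-05). MRPS5, near the mRNA entrance, was among the less lowered genes, at 147 ± 17.0 against 22.8 ± 2.16 RPKM. MRPS7, in the head of the subunit, was at 203 ± 24.2 against 12.3 ± 5.81 RPKM. The 3 genes for the bS18 family differed from each other: MRPS18C was left at 0.617% of its level, MRPS18A at 6.52% and MRPS18B at 7.86%. MRPS30, which sits in the large subunit, was left at 7.88%. MRPS36, of the dehydrogenase complex, had uneven replicates, with 4.61, 26.7 and 11.5 RPKM in hPRM1 against 97.9 to 102 RPKM in the empty vector, and the largest adjusted p of the 77 (limma, 0.00192).

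MRPS18C was the most lowered gene, from 504, 481 and 415 RPKM to 4.36, 1.45 and 2.83 RPKM, with a log2 fold change of -6.98 (SE 0.31, limma, adjusted p = 5.26e-06). It was followed by MRPL39, MRPL13, MRPL48 and MRPL47, with log2 fold changes of -6.18, -6.11, -5.96 and -5.85. MRPL39 was at 104, 91.9 and 134 RPKM in the empty vector and at 0.899, 0.828 and 0 RPKM in hPRM1. MRPL48 was at 214, 112 and 75.2 RPKM and then at 0.391, 1.27 and 1.43 RPKM, and MRPL47 at 92.5, 78.6 and 75.3 RPKM and then at 0.584, 0 and 0.854 RPKM. Since 1 read on a transcript of 1 kilobase counted for 0.171 to 0.239 RPKM in these libraries, the remnants of MRPL39, MRPL13 and MRPL47 rest on few reads and those of MRPS18C on somewhat more, and a value of 0 still allows up to 3 reads. Their fold changes also rest on the added constant: the log2 fold change of MRPL13 was -8.00 with 0.1 added and -4.19 with 5 added, and that of MRPS18C was -7.41 and -5.92.

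At the other end stood MRPL20 and MRPS6. MRPL20 was at 257, 248 and 264 RPKM in the empty vector and at 90.2, 82.2 and 58.6 RPKM in hPRM1, a log2 fold change of -1.74 (SE 0.20, limma, adjusted p = 0.000224), close to the median of all genes. MRPS6 was at 76.4, 87.5 and 78.1 RPKM and then at 17.9, 20.2 and 27.1 RPKM, a log2 fold change of -1.86 (SE 0.21, limma, adjusted p = 0.000203). They were the only members left at 20% or more. MRPS25, MRPL38 and MRPL53 came next, at -2.33, -2.46 and -2.61, and other genes lie on the same strand over the 3′ ends of MRPS6, MRPL38 and MRPL53.

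How far a gene appeared to fall depended on the scale between libraries, while most members stayed below the bulk of genes. Dividing each library by a median of ratios moved the median log2 fold change of all genes from -1.72 to 0.14 and that of the members from -3.89 to -1.55. Relative to all genes, the members stood at -2.17 on the deposited scale, -1.69 with the median of ratios and -1.86 with quantile normalization. After the median of ratios 56 of the 77 were called lower and 0 higher, and 75 of the 77 were below 0. MRPL20 and MRPS6 then pointed up, at 0.75 (limma, adjusted p = 0.0179, under the 2-fold minimum) and 0.59 (0.0567). Quantile normalization gave 70 lower and 0 higher, against 4716 and 3478 of all genes, with MRPL20 at 0.06.

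**Figure D2:**
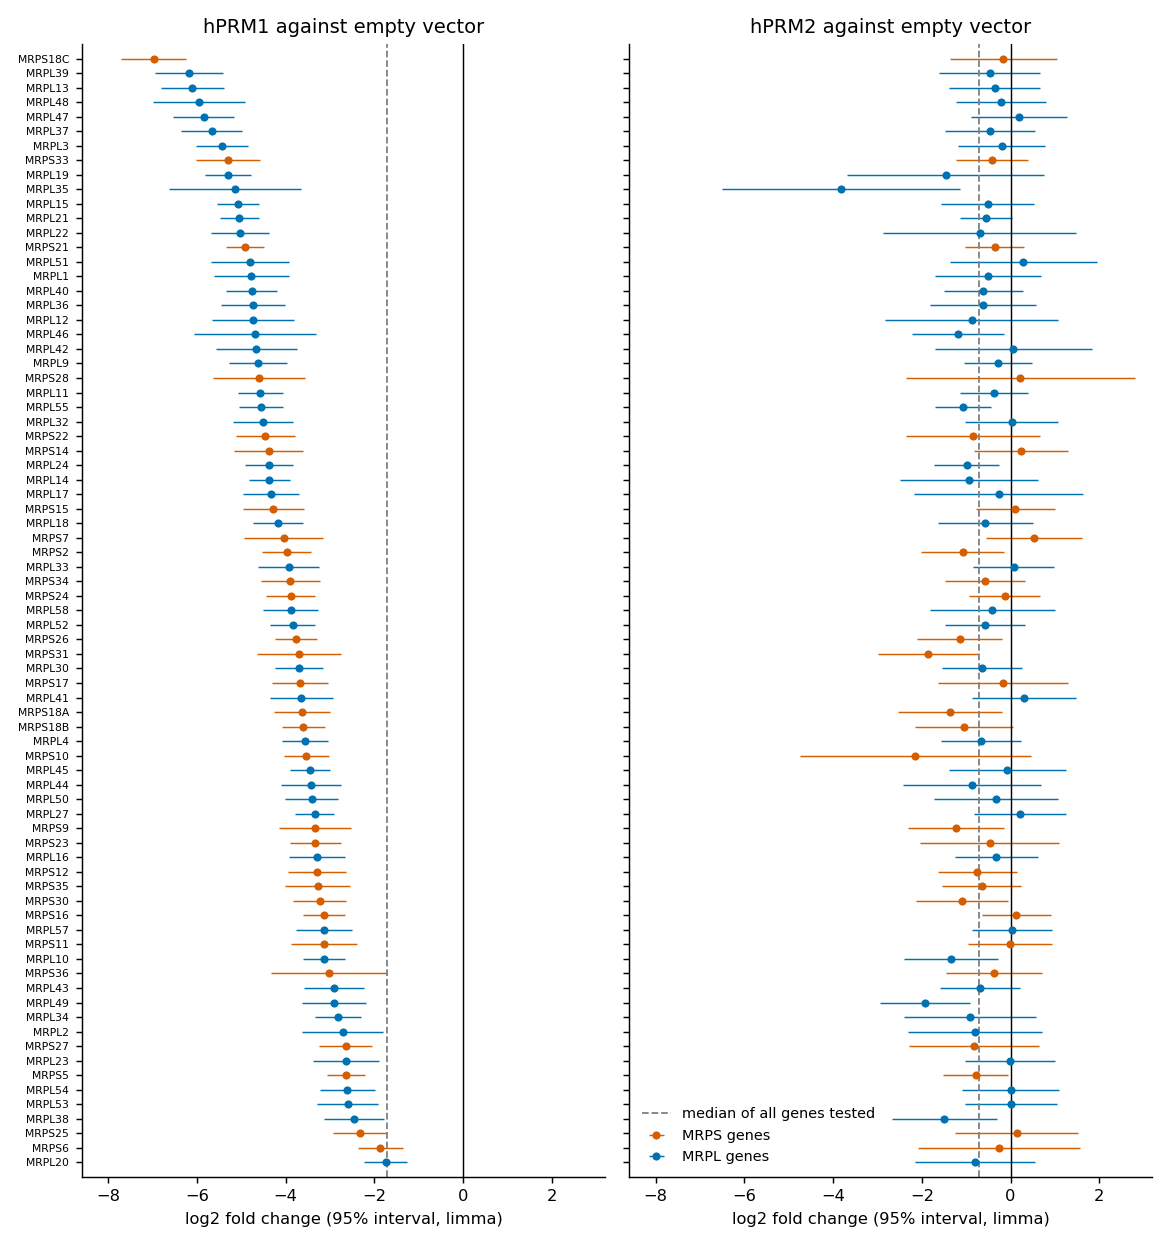
Log2 fold change on the log2(RPKM + 1) scale with its 95% interval (limma) for each of the 77 tested genes, ordered by the hPRM1 value, for hPRM1 (left) and hPRM2 (right) against the empty vector, with the median of all genes tested as a dashed line. On the deposited scale every gene is below 0 for hPRM1, from -6.98 (MRPS18C) to -1.74 (MRPL20), although MRPL20 and MRPS6 are above 0 after a median of ratios, and most hPRM2 intervals hold 0.

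In hPRM2, where PRM2 was abundant, no member was called. MRPL28, at 0, 2.57 and 1.32 RPKM there, again did not pass the minimum for testing. Of the 77 tested, 0 were called lower and 0 higher by limma, 14 had an unadjusted p under 0.05 (all of them lower), and a per-gene Welch test on RPKM also called 0. Among all 13126 genes tested, 1.37% were called lower and 1.36% higher (180 and 179 genes, and 58 and 214 after the median of ratios). The hPRM2 libraries all lay below the empty vector for 22 of the 77 and above it for 0, against 29.9% and 6.01% of all genes. The median log2 fold change was -0.50, against -0.72 for all genes, and it was 0.06 after the median of ratios (all genes -0.20), so its direction depends on the scale. The absence of calls is not evidence of equal levels: the 95% interval of 66 of the 77 reached a 2-fold decrease, and only 6 lay wholly within a 2-fold change in either direction.

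The hPRM2 replicates disagreed with each other, gene by gene. The SD of log2(RPKM + 1) over the 3 libraries had a median over the members of 0.75 in hPRM2. It was 0.20 in the empty vector and 0.33 in hPRM1. Over protein-coding genes it was 0.86, 0.34 and 0.26 in the same order. The SD over the 78 genes of the log2 deviation from the empty vector mean was 1.41, 0.83 and 0.65 in hPRM2 replicates 1, 2 and 3. It was 1.16 to 1.24 in the hPRM1 libraries and 0.21 to 0.26 in the empty vector, measured there from its own mean. This last measure also holds differences between the groups. Replicate 1 was above all empty vector libraries for 30 of the 77 and below all of them for 31, whereas replicates 2 and 3 were above for 5 and 7 and below for 64 and 56. Replicate 1 was also the highest of the hPRM2 libraries for 52 genes and the lowest for 17. The estimated reads were 2650000, 1270000 and 1610000, the fewest of all groups by this estimate. Replicate 1, whose deviations from the empty vector mean spread most over the genes, had the most of these 3. The median member rested on about 58.6 to 274 reads per kilobase here and 23.0 to 26.7 in the libraries labelled hPRM1, by the same estimate. The part of depth in the spread was not tested.

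MRPS28 shows the extent of the disagreement, at 266, 13.1 and 15.5 RPKM in hPRM2 against 37.6, 31.0 and 30.8 RPKM in the empty vector. An unnamed gene lies on the same strand over its 3′ end, so part of these reads may belong to that gene. MRPL51, at 823, 106 and 200.4 RPKM against 206 to 220.2 RPKM, and MRPS14, at 288, 91.8 and 145 RPKM against 127 to 145 RPKM, were high in the same replicate. MRPL12 was at 131, 19.2 and 15.2 RPKM, on both sides of its 49.1 to 97.1 RPKM in the empty vector (log2 fold change -0.88, SE 0.83, limma, adjusted p = 0.51). MRPS12 was even, at 38.1, 38.7 and 49.6 RPKM, and all 3 values lay below its empty vector values (-0.74, SE 0.38, limma, adjusted p = 0.258).

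The member with the lowest fold change in hPRM2 was MRPL35, a large subunit protein, at 0, 9.92 and 26.1 RPKM against 83.8 to 98.8 RPKM in the empty vector. Its log2 fold change was -3.82 (SE 1.13, limma, adjusted p = 0.109), and it was low in hPRM1 too, at 0.491, 6.54 and 0.660 RPKM. MRPL49 was at 35.4, 18.2 and 15.5 RPKM against 77.5 to 100.4 RPKM (-1.93, SE 0.43, limma, adjusted p = 0.0626), and MRPS31 at 14.9, 24.0 and 23.1 RPKM against 44.1 to 114 RPKM (-1.86, SE 0.48, limma, adjusted p = 0.0827). MRPS10 was at 1.62, 45.2 and 47.8 RPKM and MRPL38 at 43.8, 14.5 and 40.6 RPKM. In all 5 genes the hPRM2 libraries lay below every empty vector library, as for 22 of the 77 members and 29.9% of all genes. These 5 were picked for the lowest fold changes in the same values, so this adds no support. The reads of MRPS31 may be shared with its pseudogenes, whose 4 copies summed to between 8.80 and 22.1 RPKM in the empty vector and to 0, 4.26 and 30.5 RPKM in hPRM2, in replicate 3 more than MRPS31 itself.

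MRPS7 had the highest fold change in hPRM2, with 148, 460.1 and 370.3 RPKM against 188 to 231 RPKM (log2 fold change 0.53, SE 0.46, limma, adjusted p = 0.471), and MRPL41 followed with 612, 182 and 257 RPKM (0.30). Leaving out hPRM2 replicate 1 turned MRPS28, MRPS14, MRPL51 and MRPL41 to below 0, at -1.16, -0.20, -0.54 and -0.20. Without it 9 of the 77 members were called lower, against 12.3% of 12825 genes (1577 lower and 680 higher), among them MRPL49 (-2.28, limma, adjusted p = 0.0121), MRPL35 (-2.45, 0.0264) and MRPL12 (-1.84, 0.0354), and MRPS7 was called higher (1.02, 0.0354). A fit of all 9 libraries, which pools the spread, called 5 of 77 lower, among them MRPL35, MRPL49 and MRPS31, against 1618 of 13126 genes (12.3%).

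Set against hPRM2, 68 of the 77 members tested were called lower in the libraries labelled hPRM1 and 0 higher, against 37.0% and 16.0% of 11756 genes (4355 and 1879, and 2173 and 3616 after the median of ratios). In 72 of them the hPRM1 libraries all lay below the hPRM2 libraries, against 43.1% of all genes. The median log2 fold change was -3.39, against -0.97 for all genes tested. This comparison shares its libraries with both comparisons above. MRPS18C (-6.82, SE 0.61, limma, adjusted p = 0.000361), MRPL47 (-6.04, SE 0.53, adjusted p = 0.000347) and MRPL48 (-5.75, SE 0.37, adjusted p = 0.000133) differed most. MRPL12 was at -3.86 (SE 0.88, limma, adjusted p = 0.0109) and MRPS12 at -2.55 (SE 0.32, adjusted p = 0.00113).

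The 9 members that were not called were MRPL2, MRPL34, MRPS27, MRPS6, MRPS10, MRPL35, MRPL49, MRPL38 and MRPL20. MRPL20 (-0.95, SE 0.61), MRPL38 (-0.97, SE 0.53) and MRPL49 (-0.98, SE 0.48) were nearest to 0, and after the median of ratios they stood at 0.98, 0.89 and 0.86. A per-gene Welch test on RPKM called 1 member lower in this comparison, and the median of ratios left 47.

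Both subunits were lower in the libraries labelled hPRM1, apart from MRPS6 and MRPL20 after the median of ratios. The median log2 fold change was -3.63 over the 29 MRPS genes and -4.35 over the 48 MRPL genes, a difference of 0.73, and all genes of both were called lower. Counting MRPS18A and MRPS30 as large and leaving out MRPS36, the difference was 0.56. It was 0.67 with the median of ratios and 0.64 with quantile normalization, and ranged from 0.34 (without empty vector replicate 1) to 0.86 with 1 library left out, with 0.39 without hPRM1 replicate 2. By structure the lowest such value was 0.22 (without empty vector replicate 3). The mean MRPS level as a ratio to the mean MRPL level was 0.976 ± 0.0146 in the empty vector, 0.995 ± 0.177 in hPRM1 and 1.04 ± 0.144 in hPRM2 (SD over 3 libraries). The ratio of the medians was 0.827, 0.822 and 0.936 in the empty vector, 0.973, 1.39 and 1.27 in hPRM1 and 0.518, 0.804 and 0.767 in hPRM2. So the hPRM1 libraries were above and the hPRM2 libraries below the empty vector by medians, while the ratios of means overlapped. For hPRM2 against the empty vector the medians were -0.47 (MRPS) and -0.50 (MRPL).

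Genes around the ribosome were lower as well in the libraries labelled hPRM1, on the deposited scale. The share called lower over all genes tested was 62.5%, the background for the counts that follow. The 5 mitoribosomal proteins with other names were all called lower (median -2.72). The median stood at -2.37 for mitoribosome assembly factors (24 of 27 lower), at -2.61 for translation factors (16 of 16), at -2.39 for aminoacyl-tRNA synthetases (16 of 18) and at -2.81 for the mitochondrial transcription apparatus (4 of 4). The nuclear regulators of mitochondrial genes were at -1.80 (7 of 8 lower), close to the median of all genes, and at 0.08 after the median of ratios. The medians of the other 5 lists remained below 0 after the median of ratios, between -0.76 and -0.31, where 1 of 5, 7 of 27, 5 of 16, 7 of 18 and 2 of 4 were called lower and 1, 3, 0, 2 and 0 higher in the same order. Of all genes 25.1% were then called lower and 32.6% higher, and lists this short give no firm share against that background. None of the 6 lists had a member called higher on the deposited scale.

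By the rule for named genes, SLIRP, an RNA-binding protein that stabilizes mitochondrial transcripts, was the most lowered translation factor, from 9487, 8427 and 9579 RPKM to 48.8, 57.1 and 28.4 RPKM (-7.70, SE 0.27, limma, adjusted p = 3.32e-06). GADD45GIP1 (mL64), a large subunit protein, was at -4.33 (SE 0.26), and GARS1, the glycyl-tRNA synthetase, at -4.57 (SE 0.17). NDUFAB1, the mitochondrial acyl carrier protein, went from 598 ± 32.5 to 17.9 ± 2.83 RPKM. TEFM, the mitochondrial elongation factor of transcription, was at -3.14 (SE 0.32) and MYC, a driver of growth genes, at -3.23 (SE 0.41). All of these were called lower by limma. DAP3, a small subunit GTPase, MALSU1, MTIF3, KARS1, TFB2M and GABPB1, which lay nearest to the medians of their lists, were at -2.72, -2.37, -2.61, -2.46, -2.91 and -1.98. In hPRM2 none of the 6 lists had a called member on the deposited scale (1 assembly gene was called higher under each of the other scalings), and the medians ran from -1.30 (transcription) and -1.10 (aminoacyl-tRNA synthetases) to 0.03 (proteins with other names), around the -0.72 of all genes.

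Other large gene groups were lower as well on the deposited scale. Of the cytosolic ribosomal protein genes 71 of 76 were called lower in hPRM1 (median -3.35), and of the nuclear-coded subunits of the respiratory chain 76 of 76 were (median -3.70), with RPL39 at -7.16 and UQCRQ at -7.02 the most lowered. The share called lower over all genes tested was 62.5%. After the median of ratios the 3 lists stood at -1.55 (mitochondrial ribosome), -1.27 (respiratory chain) and -0.84 (cytosolic ribosome), with 56 of 77, 48 of 76 and 35 of 76 called lower and 0, 1 and 4 higher. The shares over all genes were then 25.1% lower and 32.6% higher. In hPRM2 none of these genes was called on the deposited scale, and the medians were -0.50, 0.11 and 0.24 in that order. The last 2 medians became 0.67 and 0.81 with the median of ratios and -0.11 and -0.37 with quantile normalization. With the median of ratios 7 cytosolic ribosomal and 1 respiratory chain gene were called higher, and with quantile normalization 2 and 1 were called lower. Over all genes tested, 1.63% were called higher with the median of ratios and 0.533% lower with quantile normalization.

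A measure within each library does not depend on the scale between libraries. The ranking used 1 set for all 9 libraries, 12291 protein-coding genes with at least 1 RPKM in 3 or more libraries. Of these, 11769 were above 0 in at least 1 empty vector library, 11467 in hPRM1 and 11503 in hPRM2. The median member stood at percentile 87.3, 87.9 and 86.8 in the empty vector. In the libraries labelled hPRM1 it stood at percentile 61.3, 60.7 and 62.5, and in hPRM2 at 89.1, 84.2 and 86.4. The hPRM1 libraries thus lay apart from all others, and the hPRM2 libraries lay on both sides of the empty vector. The median respiratory chain gene moved from percentile 97.1 to 97.5 in the empty vector to between 83.1 and 88.7 in hPRM1, and the median cytosolic ribosomal protein gene from 99.5 to 99.6 to between 98.7 and 98.9. As a share of the cytosolic ribosomal protein median, the member median was 2.38% to 3.25% in the empty vector, 1.39% to 1.70% in hPRM1 and 1.37% to 2.27% in hPRM2. As a share of the respiratory chain median, it was 14.9% to 19.9%, 16.8% to 26.9% and 11.8% to 15.6%, and the empty vector range overlapped both others.

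**Figure D3:**
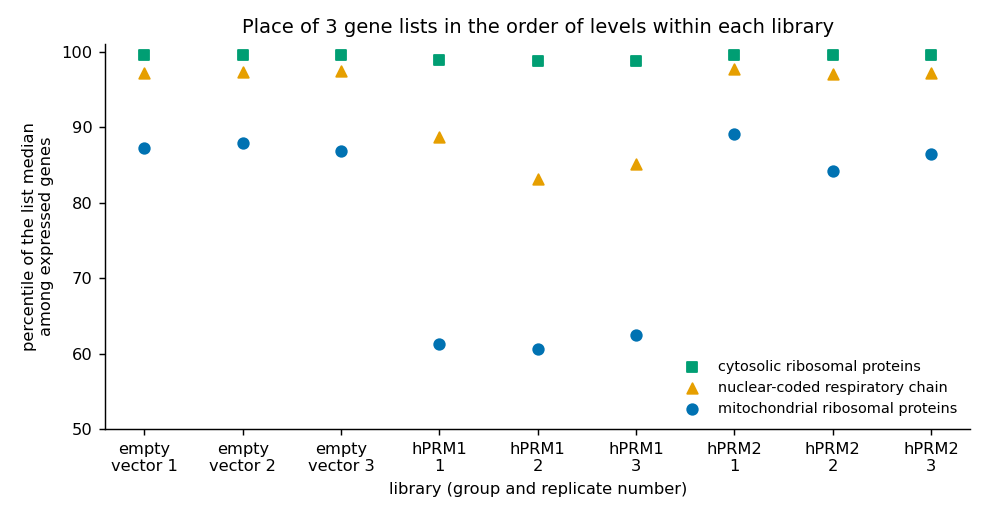
Percentile, among 12291 expressed protein-coding genes of the same library, of the median cytosolic ribosomal protein gene (squares), respiratory chain gene (triangles) and mitochondrial ribosomal protein gene (circles), for each of the 9 libraries. The mitochondrial ribosomal protein genes lie between 84.2 and 89.1 in the empty vector and hPRM2 and between 60.7 and 62.5 in the libraries labelled hPRM1.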

How the data were processed

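Libraries labelled as HEK293T cells in 3 groups (empty vector, hPRM1, hPRM2), 3 each, were profiled with a 3′ mRNA kit. The authors processed the reads with nf-core/rnaseq (FastQC, Cutadapt, STAR and Salmon, versions not given in the sources used here) on hg38, removed mitochondrial genes and deposited RPKM values for 57338 genes, scaled to the total reads of each library and to gene length. The annotation release is not given in the sources used here. Symbols were matched for 98.6% of identifiers, and 86 other MRP-like symbols, pseudogenes among them, were left out. Locations come from GENCODE 29 on GRCh38.

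Read totals were estimated from the worth of 1 read in genes with 1 transcript of 600 to 20000 bases, minus 250 bases, and depend on those lengths. A value of 0 allows up to 3 reads (counting error only).

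Each comparison was fitted with limma 3.58.1 (R 4.3.3, eBayes with trend and robust, no replicate block) on log2(RPKM + 1), over genes at 1 RPKM or more in at least 3 of its 6 libraries. P-values were Benjamini-Hochberg adjusted over every gene tested, and a gene was called at an adjusted p of at most 0.05 with a 2-fold change. This scale understates the change of low genes. Intervals are at 95%. Scripts were tested on simulated data. Nothing says that replicates came from separate cultures, so p-values measure the spread between these libraries, which may be technical. The subunits were compared as medians, with no test.

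The settings tried were pseudocounts (0.1 and 5), filters (none, or 10 RPKM), scalings (median of ratios, quantile), pooling all 9 libraries in 1 fit, a replicate block, a per-gene Welch test on RPKM (the study's methods name a t-test, not which form), no fold minimum, and leaving out each library. Named genes were a fixed list of members with known roles, the tested members with the lowest and highest fold changes (5 each against the empty vector, 3 each for hPRM1 against hPRM2), the 5 highest and 5 lowest levels in the empty vector, members not tested, and of each other list the gene with the largest change and the gene nearest to the median. The members, lists and tests were chosen with earlier results of these data known. Python 3.11.15, pandas 2.3.3 and SciPy 1.17.1 served for the remaining values, and matplotlib 3.10.9 for the plots.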

Additional observations from a re-analysis of the deposited data

How the results depend on the processing

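For hPRM1 against the empty vector, the count of members called lower ran from 56 (median of ratios) to 77 (57 by the Welch test), and none was called higher under any setting tried. Over all genes 25.1% were called lower with the median of ratios and 27.4% by the Welch test. The median log2 fold change of the members, -3.89, was -4.15 with 0.1 added, -3.18 with 5 added, -1.55 with the median of ratios, -2.26 with quantile normalization, and -3.92 to -3.77 with 1 library left out. The difference between the medians of the small and large subunit, 0.73, was 0.56 by structure and 0.34 to 0.86 with 1 library left out (0.22 to 0.73 by structure). Leaving out an empty vector library leaves 72 tested members. MRPS6 turned to 0.59 after the median of ratios, and MRPL20 to 0.75 there and to 0.056 under quantile normalization.

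For hPRM2 against the empty vector, the count called lower was 0, but 5 of 77 in the fit of all 9 libraries (12.3% of all genes), and with 1 library left out it ran from 0 to 9 (without hPRM2 replicate 1, where 12.3% of all genes were called lower), with 0 to 1 called higher. The median turned from -0.50 to 0.064 after the median of ratios. With 1 library left out, MRPS28 ran from -1.16 to 0.97, MRPS14 from -0.20 to 0.62, MRPL51 from -0.54 to 0.93 and MRPL41 from -0.20 to 0.67, each below 0 without hPRM2 replicate 1.

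For hPRM1 against hPRM2, the Welch test called 1 member lower in place of 68. The median, -3.39, was -2.59 with 5 added, -1.63 with the median of ratios and -1.95 with quantile normalization. MRPL49, MRPL38 and MRPL20 turned to 0.86, 0.89 and 0.98 under the median of ratios and to 0.44, 0.47 and 0.84 under quantile normalization.

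With the replicate block, 77 members were called lower for hPRM1 and 0 for hPRM2 against the empty vector and 68 for hPRM1 against hPRM2, so it changed no count of calls. Same-numbered libraries did not deviate together (correlations from -0.08 to 0.08), so the numbers were not taken as pairs. The cause of these differences between settings was not tested. The median member rested on an estimated 23.0 to 26.7 reads per kilobase in the libraries labelled hPRM1 and 58.6 to 274 in hPRM2. By the same estimate the hPRM2 libraries had the fewest reads on genes. The part of depth was not tested.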
